A study of Mus musculus with 25 samples.

Results

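The primitive streak and mesendoderm regulators examined here are 10 genes of the mouse embryo, namely T (brachyury), Mixl1, Eomes, Evx1, Fgf8, Gsc, Foxa2, Cer1, Mesp1 and Lhx1. They were taken by gene symbol, without regard to their values, from a table of 48440 genes counted in 25 RNA sequencing libraries, and all 10 had a row in it. The study asked how missense mutations at the degron of β-catenin, the stretch through which the protein is marked for destruction, differ in the strength of signalling they give. All libraries came from E14 cells, a line of mouse embryonic stem (ES) cells grown in ES medium with serum. Unedited cells (genotype WT in the labels) were given 0, 2.5, 5, 7.5 or 10 µM CHIR99021, an inhibitor of the kinase GSK3 that stabilizes β-catenin, for 48 h, with 2 libraries at each dose. The other 15 libraries were 1 library each from 15 clonal lines labelled 0 µM CHIR99021 and heterozygous for 1 of 11 substitutions of Ser37, Thr41 or Ser45 at the endogenous Ctnnb1 gene, which were made by replacing a selection cassette with a repair template.

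The mutations were placed in the classes of the study, which rest on a clustering of these same libraries, so a class difference here is no independent evidence for the classes. The low class held T41S, S45C and T41N (3 clones), the medium class S45P and S45F (3 clones), and the high class S37Y, S37C, S37A, T41A, T41I and S37F (9 clones). The clones of S37F, S45F, T41A and T41I came in pairs, and every other mutation was represented by 1 clone. The labels do not say whether the 2 libraries of a dose came from separate cultures, so p-values measure the spread between libraries.

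During gastrulation, Wnt signalling through β-catenin and Nodal signalling together set up the primitive streak, the site where cells leave the epiblast to form mesoderm and endoderm. T and Mixl1 are among the first genes switched on there, and T is a well known direct target of β-catenin with its T cell factor (TCF) partners. Eomes and Foxa2 mark the anterior streak that gives rise to endoderm and the node, while Mesp1 marks the earliest cardiac and cranial mesoderm.

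The libraries held 306157 to 2083398 counts, with a median of 1327802. A gene with 3 counts therefore stood at 1.44 to 9.80 CPM (counts divided by the library total and scaled to a common size), depending on the library, and this limit is called the floor. All intervals on single libraries are 95% Wilson intervals that cover counting error only. The ES cell label was checked against 9 ES cell markers (Pou5f1, Nanog, Sox2, Zfp42, Esrrb, Klf4, Tfcp2l1, Dppa5a and Tdgf1), none of which was at 0 in all libraries. Their summed level was 4863 to 4907 CPM in untreated cells and 4140 to 5128 CPM with inhibitor. Across the clones it was 1976 to 3088 CPM in the low class, 4337 to 5539 CPM in the medium class and 5310 to 6682 CPM in the high class.

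Counts were high enough to follow in 5 of the 10 genes. T was counted in all 25 libraries (1445 counts in total) and Eomes in all 25 (362 counts). Fgf8 had 217 counts in 20 libraries, Mixl1 139 counts in 22 libraries and Evx1 91 counts in 19 libraries. The other 5 members were at the limit of counting. Foxa2 had 40 counts in total, Gsc 34, Lhx1 10 and Mesp1 7, and Cer1, a secreted Nodal and BMP antagonist of the anterior endoderm, had 0 counts in every library. Over all 25 libraries together, a count of 0 for Cer1 allows a level of up to 0.0943 CPM. In bulk libraries, few cells with a high level and many cells with a low level cannot be told apart.

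T lies on the plus strand of chromosome 17 at 8434423 to 8442496 in GRCm38, the build of the counts. Mixl1 lies on chromosome 1 at 180693043 to 180697034 (minus strand), Eomes on chromosome 9 at 118478212 to 118486132 (plus strand), Evx1 on chromosome 6 at 52313498 to 52318378 (plus strand) and Fgf8 on chromosome 19 at 45736798 to 45742915 (minus strand). Evx1 overlaps Evx1os on the opposite strand, which had 34 counts against 91 for Evx1. Eomes likewise overlaps an antisense gene, Gm33460, which has no row in the table. The strand setting of the counting was not given in the sources used here, so reads from overlapping genes cannot be told apart.

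Because β-catenin acts through TCF and LEF proteins, the RefSeq promoter windows of the members (GRCm38.p6, 250 bases before to 50 after a start site) were searched on both strands for letters of TCF sites. The letters CTTTGAT were in 3.73% of all 32851 windows of this length. The letters CTTTGTT were in 5.85% of them and the letters CTTTGAA in 5.14%, and 13.9% held at least 1 of these 3 motifs. The letters TCACACC, part of the site of T-box factors such as T and Eomes, were in 3.98% of windows. Windows were available for 8 members (10 windows, 3 of them with a TCF match). The 250 bases before the start site are shown, in gene orientation, for T and Evx1, which were higher at the top doses, for Eomes, which did not pass the test, and for Mesp1, whose window had the most matches of the group. Capitals mark a match, and TTCAAAG is the last of the TCF motifs read on the other strand.
T, chr17:8434173-8434422, plus strand: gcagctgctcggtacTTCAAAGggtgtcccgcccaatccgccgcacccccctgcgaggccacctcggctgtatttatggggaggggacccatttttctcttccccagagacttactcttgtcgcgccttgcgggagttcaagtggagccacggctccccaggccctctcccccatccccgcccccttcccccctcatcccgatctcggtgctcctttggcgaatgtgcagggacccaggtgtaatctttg
Evx1, chr6:52313248-52313497, plus strand: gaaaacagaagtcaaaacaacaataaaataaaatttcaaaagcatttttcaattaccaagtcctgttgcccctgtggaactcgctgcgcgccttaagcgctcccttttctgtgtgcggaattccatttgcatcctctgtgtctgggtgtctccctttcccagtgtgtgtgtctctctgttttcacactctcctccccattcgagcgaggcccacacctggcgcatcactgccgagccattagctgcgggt
Eomes, chr9:118477939-118478188, plus strand: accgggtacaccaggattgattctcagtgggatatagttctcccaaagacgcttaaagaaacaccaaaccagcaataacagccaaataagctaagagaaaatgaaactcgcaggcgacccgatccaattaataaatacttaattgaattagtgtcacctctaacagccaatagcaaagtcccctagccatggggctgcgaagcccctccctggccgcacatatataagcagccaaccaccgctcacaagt
Mesp1, chr7:79793591-79793840, minus strand: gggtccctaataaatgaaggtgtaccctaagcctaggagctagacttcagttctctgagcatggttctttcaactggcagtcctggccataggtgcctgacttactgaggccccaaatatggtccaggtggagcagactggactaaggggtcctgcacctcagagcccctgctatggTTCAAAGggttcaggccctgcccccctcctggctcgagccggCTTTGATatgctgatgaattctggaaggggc
The T window held 1 match, which begins 235 bases before the start site. The Evx1 and Eomes windows held none of the 4 motifs. The Mesp1 window held CTTTGAT 31 bases before the start, the reverse of CTTTGAA 73 bases before it, and TCACACC 5 bases after it, beyond the stretch shown. The remaining match to TCF letters lay in 1 of the 3 Foxa2 windows, 14 bases after the start. A match is only a run of letters, and no binding was measured here.

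T, Mixl1, Evx1 and Fgf8 were higher at the top doses of the GSK3 inhibitor, though the call for Fgf8 depended on single libraries, and Eomes did not pass the test. The first comparison asked how each gene followed the dose in unedited cells. The levels of T were 9.78 and 10.6 CPM in the 2 untreated libraries, 38.8 and 35.1 CPM at 2.5 µM, and 117 and 89.3 CPM at 5 µM. They were 117 and 95.7 CPM at 7.5 µM and 124 and 102 CPM at 10 µM. Both libraries of each treated dose thus lay above both untreated libraries, and those of 5, 7.5 and 10 µM overlapped one another. The mean was 10.2 ± 0.600 CPM (SD, n = 2) without inhibitor and 110 ± 13.2 CPM (SD, n = 4) at the top doses, 7.5 and 10 µM in 1 group.

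Mixl1, a homeobox gene of the streak, was barely counted in untreated cells, with 0.544 and 1.06 CPM (1 count in each library). It was at 0 and 3.05 CPM at 2.5 µM, 4.94 and 5.28 CPM at 5 µM, 10.9 and 16.7 CPM at 7.5 µM, and 13.1 and 17.3 CPM at 10 µM. From 5 µM upward every library lay above every library of the next lower dose, except that 7.5 and 10 µM overlapped. Evx1, a homeobox gene of the posterior streak, had 0.544 and 0 CPM without inhibitor and 0 and 3.05 CPM at 2.5 µM. It had 1.65 and 3.36 CPM at 5 µM, 6.53 and 6.34 CPM at 7.5 µM, and 13.1 and 12.8 CPM at 10 µM. The 2 libraries at 10 µM were the highest of all 25 for Evx1, and neither value overlapped those at 7.5 µM. Of the 21 Evx1 counts at 10 µM, however, 17 were in the second library. The first was the smallest of all libraries (306157 counts, floor 9.80 CPM). Its 13.1 CPM for Evx1 and for Mixl1 thus rest on few counts, and the separation from 7.5 µM is loose.

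Fgf8, the fibroblast growth factor needed for cells to move out of the streak, had 3.80 and 6.38 CPM in untreated cells and 8.62 and 19.8 CPM at 2.5 µM. It had 13.2 and 22.6 CPM at 5 µM, 17.4 and 13.8 CPM at 7.5 µM, and 13.1 and 17.3 CPM at 10 µM. Every treated library was above both untreated ones, with no order among the 4 doses. Eomes, a T-box factor of the anterior streak, had 4.35 and 7.44 CPM without inhibitor, 8.62 and 11.4 CPM at 2.5 µM, and 6.58 and 9.60 CPM at 5 µM. It had 7.25 and 4.03 CPM at 7.5 µM and 9.80 and 9.79 CPM at 10 µM. The 9.80 CPM is the floor of the first library at 10 µM, or 3 counts, so the closeness of this pair means little. The 13.1 CPM of Fgf8 in the same library likewise rests on few counts. The untreated range of Eomes overlapped that of the top doses.

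**Figure D1:**
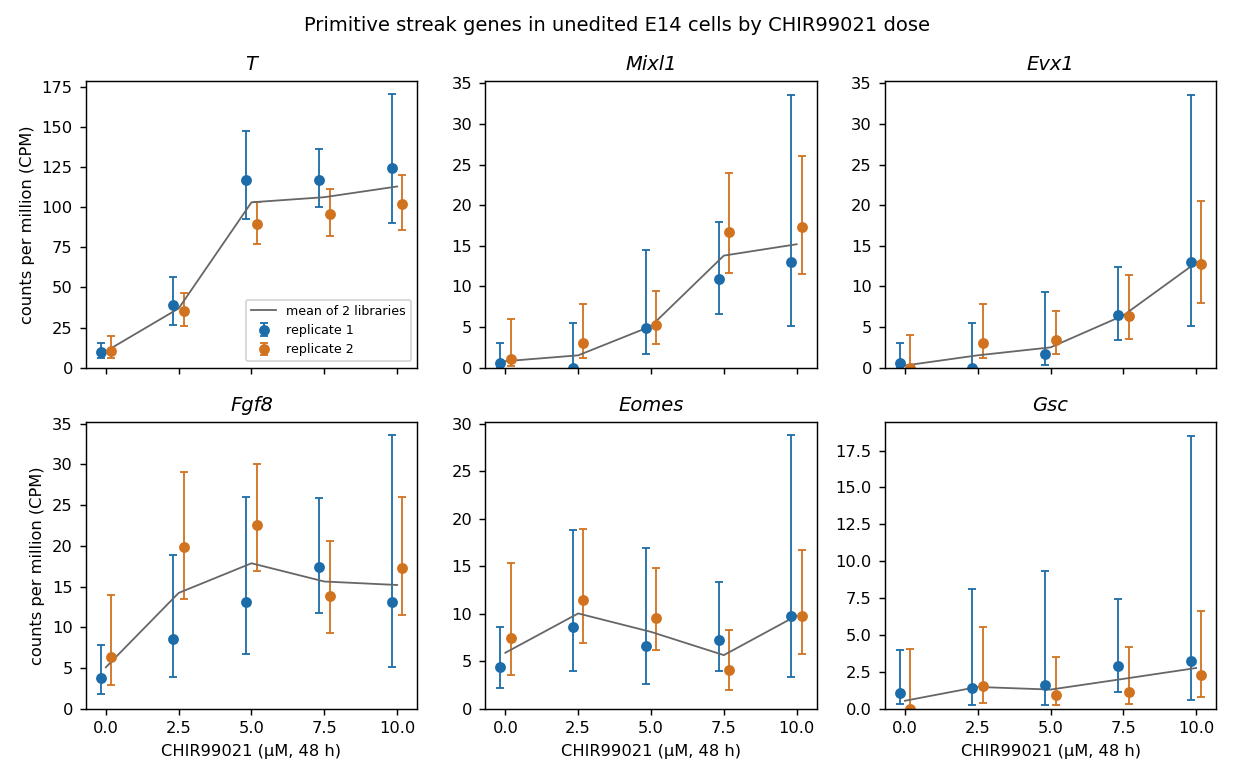
CPM of 6 members (vertical axis) in unedited E14 cells against the dose of CHIR99021 (horizontal axis, µM). Each point is 1 library with its 95% Wilson interval, points are set slightly apart by replicate number, and the line joins the means of 2 libraries. T reached 89.3 CPM or more in every library from 5 µM on, Mixl1 and Evx1 went on to higher means at the top doses, and Eomes stayed between 4.03 and 11.4 CPM.

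For a slope on dose, fitted with edgeR (quasi-likelihood) and adjusted over all genes tested by Benjamini and Hochberg's method, 4 of 10 members passed the filter on low counts, and 2 of them rose and 0 fell. Of all 10033 genes tested, 12.5% were called, 5.89% rising and 6.63% falling. T rose by 0.27 ± 0.036 log2 units per µM (SE, edgeR adjusted p = 3.8e-06) and Mixl1 by 0.41 ± 0.057 (SE, edgeR adjusted p = 9.5e-06). The slope of Fgf8 was 0.11 ± 0.045 (SE, edgeR adjusted p = 0.103) and that of Eomes 0.02 ± 0.049 (SE, edgeR adjusted p = 0.827). Mixl1 passed the filter only through its libraries at the higher doses, so its call in the filtered table is a description. With no filter, over 21735 genes with any count, the slope was 0.40 ± 0.059 for Mixl1 (SE, edgeR adjusted p = 9.5e-10) and 0.42 ± 0.075 for Evx1 (SE, edgeR adjusted p = 2.2e-06), which did not pass the filter. On log2 of the dose plus 1 µM in place of the dose, Fgf8 had an edgeR adjusted p of 0.0052.

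Set against no inhibitor without assuming a line, 4 of the 5 members tested were higher at the top doses, where 15.8% of 10674 genes were called, 7.35% higher and 8.45% lower. T was higher by 3.40 ± 0.23 log2 units (SE, edgeR adjusted p = 1.1e-14), a 10.7-fold difference between the means. Mixl1 was higher by 4.22 ± 0.66 (SE, edgeR adjusted p = 6.0e-06), Evx1 by 4.33 ± 0.86 (SE, edgeR adjusted p = 0.00026) and Fgf8 by 1.75 ± 0.42 (SE, edgeR adjusted p = 0.0025). Mixl1, Evx1 and Fgf8 passed the filter only through treated libraries, where they are high, so neither their calls nor the count of 4 are support for a rise. With no filter the edgeR adjusted p was 1.1e-09 for Mixl1, 6.9e-06 for Evx1 and 0.00058 for Fgf8. Since Mixl1 had 2 counts and Evx1 1 count in untreated cells, the sizes of their changes are loose. On pooled counts the ratio was 20.8 for Mixl1 (exact 95% counting interval 5.55 to 175) and 24.0 for Evx1 (4.07 to 971). Eomes differed by 0.43 log2 units, with a 95% interval of −0.53 to 1.39 (edgeR adjusted p = 0.604). The call for Fgf8 was lost without the first untreated library (1.29, edgeR adjusted p = 0.204) and without the second library at 10 µM (1.60, edgeR adjusted p = 0.095), and DESeq2 gave it an adjusted p of 0.101.

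The steps between neighbouring doses, chosen after the levels were seen, gave calls for T and Fgf8 only, and Mixl1, Evx1 and Eomes were called in none of the 4 steps (edgeR adjusted p of 0.452 or more). From 0 to 2.5 µM, 2 of 5 members tested were higher, against 2.32% of all genes called (1.28% higher and 1.04% lower). T rose by 1.87 ± 0.32 log2 units (SE, edgeR adjusted p = 0.00018) and Fgf8 by 1.74 ± 0.48 (SE, edgeR adjusted p = 0.0397, 0.0699 with the replicate number as a block). Fgf8 passed the filter only through treated libraries, so its call and the count of 2 are no support for a rise. From 2.5 to 5 µM, T was the 1 member called, among 0.112% of all genes (0.0937% higher and 0.0187% lower), with a rise of 1.43 ± 0.21 (SE, edgeR adjusted p = 0.00025). From 5 to 7.5 µM none of the 5 members tested was called by edgeR or DESeq2 (0.0187% of all genes in edgeR), 1 had an unadjusted p under 0.05, and T differed by 0.08 log2 units with a 95% interval of −0.26 to 0.42. In the same step Mixl1 differed by 1.40 ± 0.47 (SE, edgeR adjusted p = 0.997). From 7.5 to 10 µM 0 of 10674 genes were called in edgeR (0%) and 0 in DESeq2, with 501 genes and 0 members at an unadjusted edgeR p under 0.05. T differed by 0.04 (95% interval −0.32 to 0.41) and Evx1 by 1.00 ± 0.53 (SE, edgeR adjusted p = 0.976).

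In the unedited cells 4 libraries (the second at 0 µM and the first at 2.5, 5 and 10 µM) had a mitochondrial share of counts of 0.485% to 0.562% and at most 940544 counts, against 0.986% to 1.46% in the other 6. Within those 6 libraries the dose slope was 0.27 ± 0.040 log2 units per µM for T (SE, edgeR adjusted p = 0.00016) and 0.39 ± 0.065 for Mixl1 (SE, edgeR adjusted p = 0.00034).

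The same pattern was looked for in other genes of the streak and its signals, from lists that are described by their counts only. Of 20 genes of the streak and early mesoderm, 7 were tested for the dose slope. Sp8, Snai1, Cyp26a1 and Wnt3 rose, and Fgf4 and Fgf17 were among those that fell. The median slope was 0.15 log2 units per µM, beside 0.00 over all genes tested. Sp8, a transcription factor of the posterior embryo, rose by 0.31 ± 0.053 log2 units per µM (SE, edgeR adjusted p = 0.00013). Wnt3, the ligand that starts the streak, had a mean of 6.73 ± 2.01 CPM (SD, n = 2) in untreated cells and 27.4 ± 0.0986 CPM (SD, n = 2) already at 2.5 µM. Fgf4, a growth factor of undifferentiated ES cells, fell from 330.0 ± 3.94 CPM (SD, n = 2) to 131 ± 9.69 CPM (SD, n = 2) at 10 µM. Its slope was −0.13 ± 0.015 log2 units per µM (SE, edgeR adjusted p = 2.5e-07).

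Of 14 genes of the node, organizer and definitive endoderm, only Hhex and Nog passed the filter for the slope and neither was called. Of 14 genes of the Nodal and activin pathway, 13 were tested: Acvr1b and Smad3, a receptor and a signal transducer, rose, and Lefty1, Lefty2, Tdgf1 and Gdf3 fell. The median slope of this list was −0.02 log2 units per µM. Lefty1, a feedback inhibitor of Nodal, fell from 189 ± 22.0 CPM (SD, n = 2) to 28.4 ± 6.05 CPM (SD, n = 2) at 10 µM, with a slope of −0.33 ± 0.020 (SE, edgeR adjusted p = 2.1e-12). Tdgf1, the Nodal co-receptor, had a slope of −0.06 ± 0.011 (SE, edgeR adjusted p = 0.00031). Nodal itself, named here as the ligand, had a slope of −0.06 ± 0.021 (SE, edgeR adjusted p = 0.0519). All 7 genes of a list of β-catenin targets and partners rose (Axin2, Sp5, Cdx1, Nkd1, Notum, Lef1 and Tcf7), with a median of 0.28 log2 units per µM. The first 5 had been chosen by the study on these libraries and are no independent evidence of direction. Trophoblast markers moved with the dose as well: of 8 markers 4 were tested and 3 of these rose (Krt8, Krt7 and Gata3). Their summed level was 171 to 182 CPM in untreated cells and 339 to 521 CPM with inhibitor. Most of that sum was Krt8, while Elf5 and Plac1 had 10 and 9 counts in all 25 libraries. Of the 9 ES cell markers 2 rose and 5 fell. The summed level of 5 neural markers was 99.9 to 103 CPM in untreated cells and 35.9 to 53.2 CPM with inhibitor, while that of 5 fibroblast markers was 21.3 to 30.4 CPM and 21.1 to 67.8 CPM. Whether any of these had a part in the changes of the streak genes was not tested.

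In the mutant clones T stayed well under its levels at 5 µM and above, and the classes overlapped. The levels of T were 48.6 CPM in T41S, 19.6 CPM in S45C and 8.07 CPM in T41N, the 3 clones of the low class. They were 17.3 CPM in S45P and 10.0 and 12.8 CPM in the pair of S45F. Among the 9 high clones the lowest was 15.6 CPM, the median 36.5 CPM and the highest 58.3 CPM. The clone of T41S, the mutation with the lowest mutational effect score (the study's measure of the signalling strength of a mutation), was thus exceeded for T by both S37F clones and by no other, and its interval of 39.3 to 60.0 CPM overlapped those of both S37F clones. The means were 25.4 ± 20.9 CPM (SD, n = 3) in the low class, 13.4 ± 3.66 CPM (SD, n = 3) in the medium class and 33.7 ± 15.4 CPM (SD, n = 9) in the high class.

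Eomes in the low class was at 14.7 CPM in T41S, 12.1 CPM in S45C and 10.1 CPM in T41N, and in the medium class at 5.32 CPM in S45P and 3.14 and 2.75 CPM in S45F. In the high class it ranged from 7.43 to 28.6 CPM with a median of 16.5 CPM. The 3 medium clones were the 3 lowest of the 15, and no clone of another class overlapped them. They held only 12 Eomes counts together, and the S45F clone at 2.75 CPM was at its floor. The separation of these values thus rests on few counts. Mixl1 was highest in T41S (8.47 CPM, 15 counts), S45C (6.03 CPM) and S45P (5.32 CPM), and 0 to 5.11 CPM in the high class. S45C and S45P stood little above their floors of 4.53 and 3.99 CPM, and the high clone at 5.11 CPM had 5 counts. The order of these clones is therefore loose. Fgf8 was at 9.60 CPM in T41S and 0 in both other low clones, 0.917 to 1.33 CPM in the medium class, and 0 to 6.94 CPM in the high class with a median of 0.744 CPM. Only T41S and 1 S37F clone exceeded the untreated range of Fgf8. Evx1 ranged from 0 to 3.39 CPM in the low class, 0 to 0.628 CPM in the medium class and 0 to 4.09 CPM in the high class, or 0 to 8 counts.

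**Figure D2:**
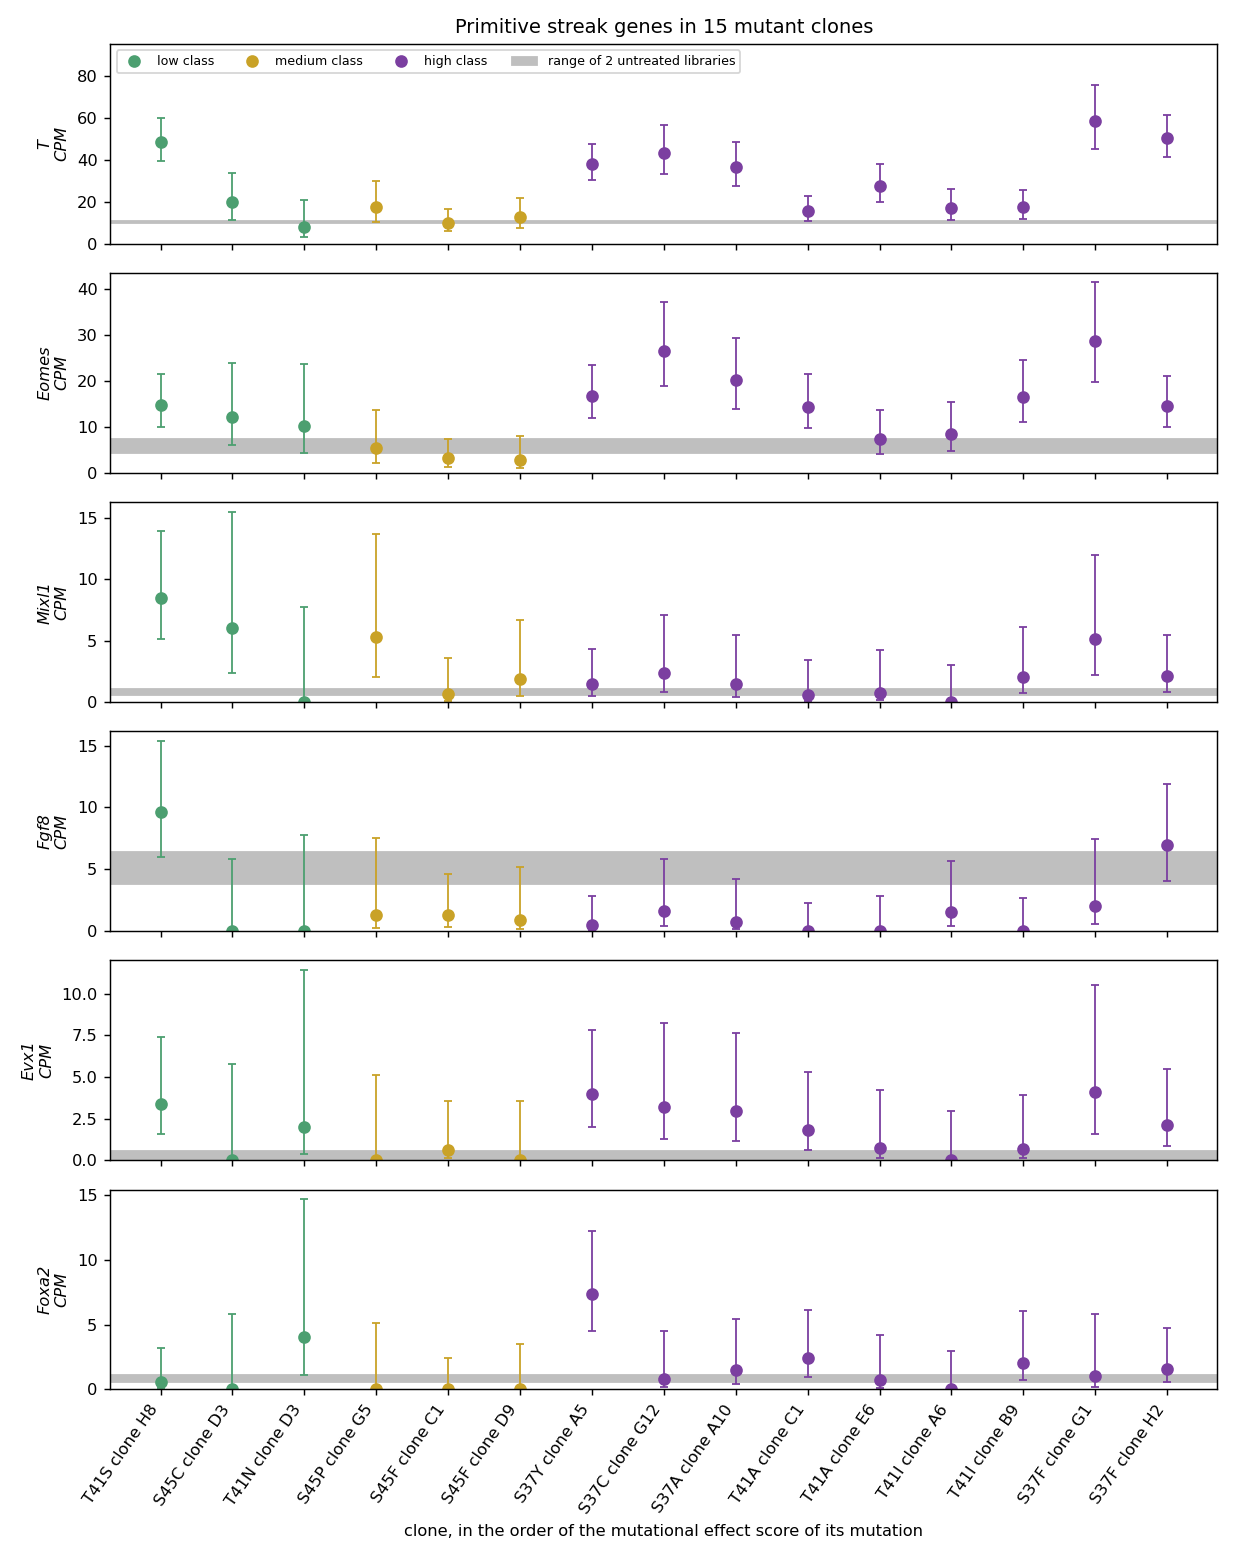
CPM of 6 members (vertical axes) in the 15 clones, ordered along the horizontal axis by the mutational effect score, lowest first. Each point is 1 library with its 95% Wilson interval, colours give the class, and the grey band is the range of the 2 untreated libraries. T was at 48.6 CPM in T41S at the left end and at 50.2 and 58.3 CPM in S37F at the right end, and Eomes was lowest in the 3 medium clones.

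Only T and Eomes passed the count filter among the clones. In high against low class neither was called by edgeR or DESeq2 and neither had an unadjusted p under 0.05, where 29.8% of 10452 genes were called in edgeR, 13.1% higher and 16.6% lower. T differed by 0.13 log2 units (95% interval −0.69 to 0.96, edgeR adjusted p = 0.838) and Eomes by 0.37 (95% interval −0.38 to 1.11, edgeR adjusted p = 0.479). One clone decided the value for T: without T41S it was 1.23 (edgeR adjusted p = 0.145), and without S45C or T41N it turned to −0.05 or −0.15. Mixl1 did not pass the filter in this fit. Without the filter it was lower in the high class (−1.69 ± 0.61 log2 units, SE, edgeR adjusted p = 0.0408, 0.136 in DESeq2). With clones of a mutation summed it passed the filter and differed by −1.78 (edgeR adjusted p = 0.0442). Of the 19 Mixl1 counts in the low class 15 were in T41S, so these values rest largely on 1 clone.

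In medium against low class 1 of the 2 was called, where 11% of all genes were, 3.66% higher and 7.29% lower. Eomes fell by 1.88 ± 0.55 log2 units (SE, edgeR adjusted p = 0.0284), and T differed by −1.28 ± 0.55 (SE, edgeR adjusted p = 0.144). The call for Eomes was lost without T41S (−1.64, edgeR adjusted p = 0.242) or either S45F clone (−1.73 and −1.72, edgeR adjusted p = 0.129 and 0.109), and T differed by −0.18 without T41S. In high against medium class Eomes was higher by 2.25 ± 0.45 log2 units (SE, edgeR adjusted p = 0.0080), 1 of 2 members called beside 4.51% of all genes (2.13% higher and 2.37% lower). T differed by 1.41 ± 0.46 (SE, edgeR adjusted p = 0.0806), and its adjusted p was 0.0459 in DESeq2. The call for Eomes was lost when either S45F clone was left out (2.11 in both cases, edgeR adjusted p = 0.064 and 0.059). Eomes passed the filter only through clones of the low and high classes, where it is high. Neither its calls against the medium class nor the counts of members called are support for a difference. With no filter Eomes differed by −1.84 ± 0.52 in medium against low (SE, edgeR adjusted p = 0.0134). In high against medium it differed by 2.26 ± 0.43 (SE, edgeR adjusted p = 7.3e-05).

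Other cell type markers moved with the classes too, and 7 of 9 ES cell markers were higher and 0 lower in the high than in the low class in edgeR. The summed level of 8 trophoblast markers was 549 to 1847 CPM in the low class, highest in T41S, 84.4 to 311 CPM in the medium class and 94.0 to 235 CPM in the high class. That of 5 neural markers was 141 to 222 CPM in the low class, 107 to 145 CPM in the medium class and 23.1 to 93.9 CPM in the high class. That of 5 fibroblast markers was 49.8 to 147 CPM, 4.59 to 19.97 CPM and 3.997 to 13.8 CPM in the same order, and no list had a marker at 0 in all 25 libraries apart from Afp and Ttr, 2 of 10 of primitive and visceral endoderm. The sum of those 10 was 20.2 to 50.3 CPM in the low class, 5.32 to 33.9 CPM in the medium class and 10.1 to 286 CPM in the high class, highest in S37Y. Their part in the class results was not tested.

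Among the listed genes of the streak and early mesoderm, 9 were tested in high against low class, 3 higher and 3 lower, with a median of 0.04 log2 units beside 0.01 over all genes. Wnt3 was lower in the high class by −3.34 ± 0.45 (SE, edgeR adjusted p = 6.2e-06). It was at 18.2 to 70.6 CPM in the low class, highest in T41S, and at 0.599 to 8.92 CPM in the high class, so the groups did not overlap. Hand1, a gene of early mesoderm that is also in the trophoblast list, was lower by −2.52 ± 0.43 (SE, edgeR adjusted p = 0.00012) and Fgf17 by −1.33 ± 0.25 (SE, edgeR adjusted p = 0.00034). Fgf4 was higher by 0.88 ± 0.18 (SE, edgeR adjusted p = 0.00070), and the other 2 that were higher were Nkx1-2 and Zic2.

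Of the node and endoderm list 6 were tested, with Gata6 higher, Otx2 lower and a median of 0.82 log2 units. Gata6, a factor of primitive and definitive endoderm that is also in the endoderm markers above, was higher by 2.74 ± 0.96 (SE, edgeR adjusted p = 0.0348), and Otx2, an anterior epiblast factor, differed by −1.39 ± 0.49 (SE, edgeR adjusted p = 0.0360). Of the Nodal and activin list 13 were tested, with a median of −0.37 log2 units. Pcsk6 and Tdgf1 were higher, and Smad3, Furin, Lefty1 and Nodal were lower. The values were −1.69 ± 0.26 for Smad3 (SE, edgeR adjusted p = 3.6e-05), 1.17 ± 0.21 for Pcsk6 (SE, edgeR adjusted p = 0.00022) and 0.78 ± 0.14 for Tdgf1 (SE, edgeR adjusted p = 0.00028). Of the 7 β-catenin genes Axin2 and Cdx1 were higher and Lef1 was lower, with a median of 0.08.

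Set beside untreated cells, T and Eomes were both higher in the high class, the 2 members tested, where 32.0% of 11018 genes were called, 15.3% higher and 16.7% lower. T was higher by 1.71 ± 0.53 log2 units (SE, edgeR adjusted p = 0.0159), 3.30-fold between the means, and Eomes by 1.58 ± 0.46 (SE, edgeR adjusted p = 0.0116), 2.89-fold. All 9 high clones exceeded both untreated libraries for T, while the lowest Eomes clone, at 7.43 CPM, did not exceed the higher untreated library at 7.44 CPM. With 2 untreated libraries these calls are fragile: without the first, adjusted p was 0.189 for T and 0.258 for Eomes in edgeR, and without the second, 0.088 for T. Eomes passed the filter only through clones, so its call and the count of 2 are no support for a higher level. With no filter Eomes differed by 1.59 ± 0.43 (SE, edgeR adjusted p = 0.0030). In that setting Fgf8 went the other way, by −1.57 ± 0.67 (SE, edgeR adjusted p = 0.0984), and was not called. On pooled counts its ratio was 0.34, from 21 counts in the high class and 13 in untreated cells. The exact interval of 0.162 to 0.738 covers counting error only. Mixl1 and Evx1 differed by 1.12 and 2.35 with no filter (edgeR adjusted p = 0.564 and 0.175). In the low class against untreated cells 0 of 2 members tested were called by edgeR or DESeq2, both with an unadjusted edgeR p under 0.05, where 30.9% of all genes were called in edgeR (16.4% higher and 14.5% lower). T differed by 1.57 ± 0.60 (SE, edgeR adjusted p = 0.0513), by 0.48 without T41S, with adjusted p of 0.021 to 0.047 on leaving out any of 7 other clones, and Eomes by 1.19 ± 0.55 (SE, edgeR adjusted p = 0.102). With no filter T differed by 1.55 ± 0.37 (SE, edgeR adjusted p = 0.00044). Mixl1 then differed by 2.82 ± 1.02 (SE, edgeR adjusted p = 0.0402, 0.137 in DESeq2), with 15 of its 19 low class counts in T41S and 2 counts in untreated cells.

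The high class differed from strong GSK3 inhibition in opposite ways for different members. Against the 4 libraries at 7.5 and 10 µM, 3 of 4 members tested were lower and 1 was higher, where 49.7% of 10145 genes were called, 24.2% higher and 25.5% lower. T fell by 1.73 ± 0.24 log2 units (SE, edgeR adjusted p = 5.0e-06), Mixl1 by 3.12 ± 0.38 (SE, edgeR adjusted p = 8.6e-07) and Fgf8 by 3.29 ± 0.50 (SE, edgeR adjusted p = 1.6e-05). Mixl1 and Fgf8 did not pass the filter in the fits of clones and were tested here only through their counts with inhibitor, so neither these calls nor the count of 3 are support for a lower level. With no filter, over 22258 genes with any count, Mixl1 differed by −3.07 ± 0.40 (SE, edgeR adjusted p = 2.2e-11) and Fgf8 by −3.24 ± 0.41 (SE, edgeR adjusted p = 6.0e-12). Eomes was higher by 1.19 ± 0.36 (SE, edgeR adjusted p = 0.0091), at 7.43 to 28.6 CPM against 4.03 to 9.80 CPM. This call was lost without the second library at 7.5 µM (0.89, edgeR adjusted p = 0.077). Eomes passed the filter only through the high clones, where it is high. Neither its call nor the count of 1 is support for a higher level. With no filter Eomes differed by 1.24 ± 0.31 (SE, edgeR adjusted p = 0.00073). Evx1 was tested only without the filter, where it differed by −1.97 ± 0.44 (SE, edgeR adjusted p = 0.00013). The groups differ in editing, clonal origin and inhibitor at once, which cannot be told apart, and the summed endoderm markers were 15.8 to 52.3 CPM with inhibitor.

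**Figure D3:**
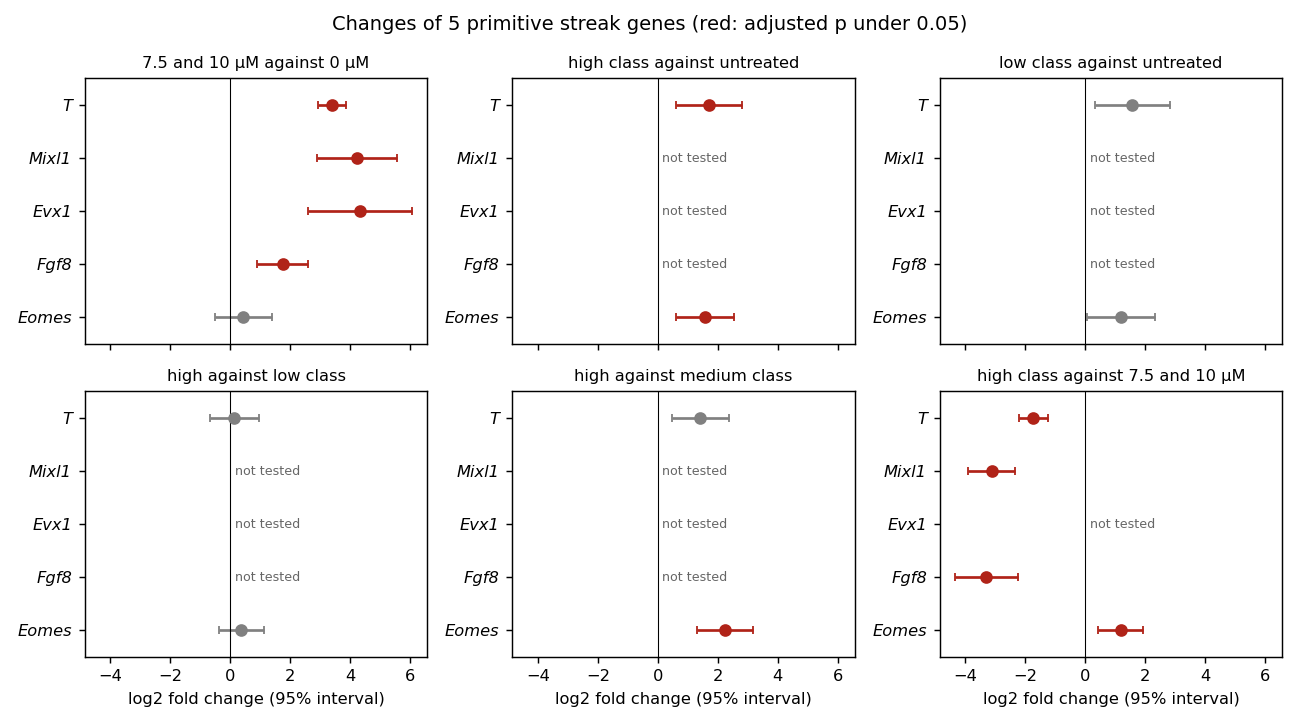
Log2 fold changes (horizontal axes) of 5 members (vertical axis) in 6 comparisons, from edgeR, with 95% intervals. Red points had an adjusted p under 0.05 and grey points did not; genes that did not pass the count filter are marked as not tested. T, Mixl1, Evx1 and Fgf8 lay at 1.75 or more for the top doses against no inhibitor, and Eomes was to the right of 0 and T, Mixl1 and Fgf8 to its left in the high class against the top doses.

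Within the high class the clones of codon 37 had more T than those of codon 41, a comparison chosen after the levels were seen. The 5 clones of codon 37 had 36.5, 38.0, 43.2, 50.2 and 58.3 CPM, and the 4 clones of codon 41 had 15.6, 17.1, 17.2 and 27.5 CPM. The groups did not overlap, with means of 45.2 ± 9.06 CPM (SD, n = 5) and 19.3 ± 5.49 CPM (SD, n = 4). T was higher by 1.21 ± 0.21 log2 units (SE, edgeR adjusted p = 0.0489), 1 of the 2 members tested, where 0.0733% of 9550 genes were called (0.0209% higher and 0.0524% lower). The call was lost on leaving out any of 8 of the 9 clones (edgeR adjusted p of 0.061 to 0.323), and the difference stayed between 1.11 and 1.41. The codon 41 clones were only the pairs of T41A and T41I, and codon 37 included the S37F pair. Clones of a mutation were not summed here, so the p-value measures the spread between clones and not between mutations. Eomes was at 14.4, 16.8, 20.1, 26.4 and 28.6 CPM in codon 37 and 7.43, 8.53, 14.4 and 16.5 CPM in codon 41, and differed by 0.78 ± 0.29 (SE, edgeR adjusted p = 0.437). Evx1, which did not pass the filter, had 4 to 8 counts in each codon 37 clone (2.14 to 4.09 CPM) and 0 to 3 counts in each codon 41 clone (0 to 1.80 CPM). With no filter it differed by 1.79 ± 0.73 (SE, edgeR adjusted p = 0.442) and was not called. The summed primitive and visceral endoderm markers were 50.1 to 286 CPM in codon 37 and 10.1 to 101 CPM in codon 41, and the summed neural markers 23.1 to 46.0 CPM and 43.9 to 93.9 CPM. Their part in the difference was not tested.

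The paired clones of a mutation had T at 17.1 and 17.2 CPM for T41I, 10.0 and 12.8 CPM for S45F, 50.2 and 58.3 CPM for S37F, and 15.6 and 27.5 CPM for T41A. The SD of log2(CPM + 1) within the 4 pairs was 0.31 for T, beside 0.86 over all 15 clones. The T41A pair was thus the widest apart of the 4 for T. Eomes was at 8.53 and 16.5 CPM for T41I, 7.43 and 14.4 CPM for T41A, 14.4 and 28.6 CPM for S37F, and 3.14 and 2.75 CPM for S45F. The SD of Eomes within pairs was 0.55, against 0.89 over all clones, and for Fgf8 it was 0.69 against 1.06.

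**Figure D4:**
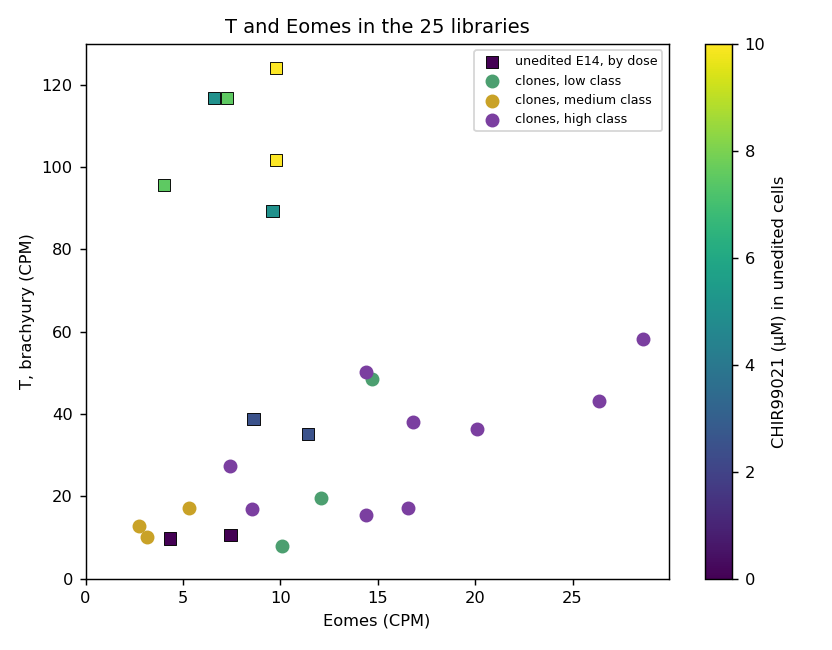
T (vertical axis, CPM) against Eomes (horizontal axis, CPM) in the 25 libraries. Squares are unedited cells coloured by the dose of CHIR99021 and circles are clones coloured by class. The dose moved T from 9.78 to 124 CPM with Eomes at 11.4 CPM or less, while clones of the high class reached 28.6 CPM of Eomes with T at 58.3 CPM or less.

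Across libraries, T and Eomes had a Pearson correlation of log2(CPM + 1) of 0.70 over the 15 clones and 0.24 over the 10 unedited libraries, and T and Mixl1 of 0.54 and 0.80. These values are descriptions over libraries that share dose groups, classes and depth. For each of the 4 members with at least 100 counts in total, the 3 genes most like it over all 25 libraries were taken from those with a mean of at least 5 CPM. For T they were Msx1 (r = 0.88), Cdkn1a (r = 0.87) and Abhd2 (r = 0.86). For Msx1 the value was 0.99 within the 10 unedited libraries and 0.57 within the 15 clones. Mixl1 was closest to T (r = 0.75), Scd2 and Fgfbp3 (r = 0.74 each), and Fgf8 to Rnf43, Ntmt1 and Dlx3 (r = 0.94, 0.94 and 0.93). Eomes was closest to Oat, Flrt3 and Slc35b3 (r = 0.72, 0.71 and 0.70), but for Oat the value was −0.09 in unedited cells and 0.90 in the clones.

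The organizer and endoderm members gave single counts in most libraries. Gsc, a homeobox gene of the organizer, was counted in all unedited libraries except 1 untreated library, at 0.960 to 3.27 CPM. It had over 3 counts in 3 libraries only, with 4 at 7.5 µM (2.90 CPM), 4 in an S45F clone (2.51 CPM) and 6 in an S37F clone (3.20 CPM). Its pooled ratio between the top doses and untreated cells was 2.93, with an exact 95% counting interval of 0.624 to 27.5. Foxa2, a forkhead factor of endoderm and node, had 15 counts in the S37Y clone (7.41 CPM) and 4 in a T41A clone (2.40 CPM), and at most 3 in every other library. The S37Y clone also had the highest summed endoderm markers of all libraries, 286 CPM, with Afp and Ttr at 0, and their part in this value was not tested. Mesp1 was at 0 in 20 libraries and had at most 2 counts in any. Lhx1, a LIM homeobox gene of the node, was at 0 in 18 libraries and had at most 3 counts. Within the high class Gsc had 11 counts in the codon 37 clones and 0 in the codon 41 clones. With no filter this difference was 4.15 ± 1.36 log2 units (SE, edgeR adjusted p = 0.189) and was not called. At this depth no difference between groups was called for Gsc, Mesp1 or Lhx1, and Cer1 had no counts to compare.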

How the data were processed

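RNA of E14 ES cells was sequenced by mcSCRB-seq, a bulk 3′ method with unique molecular identifiers. Per the paper's methods and the submitters' processing notes, the authors removed ribosomal reads, aligned to mm10, removed duplicate molecules and counted with featureCounts 2.0.1. The deposited values are raw counts per gene, 306157 to 2083398 per library, in 1 table. The annotation release and strand setting are not given in the sources used here. Mitochondrial shares, CPM and Wilson intervals were computed from these counts. 3′ counts were not scaled by length, so levels were compared between libraries and not between genes.

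Groups were dose or mutation from the labels, and the study's classes by mutation. Counts were tested with edgeR 4.0.16 (quasi-likelihood, TMM, filterByExpr with a minimum count of 10, threshold 0.05 after Benjamini-Hochberg adjustment over all genes tested, R 4.3.3). The class fits used the 15 clones, with the 2 untreated libraries added for comparisons with untreated cells. The scripts were tested on simulated data. Alternatives were RLE scaling, DESeq2 1.42.0, no filter, thinning to the smallest library, blocks, other codings and leaving out each library. The neighbouring doses and the codons were compared only after the data were seen. Promoters are RefSeq windows of GRCm38.p6, and gene positions come from the GENCODE annotation of GRCm38. The members, the lists of related genes and markers and the naming rule (all 10 members, the 3 most similar genes, and up to 3 genes per list with the smallest adjusted p) were chosen with earlier results of these data known. Other genes of a list are named as part of a count. A listed gene that the naming rule selected is not reported here. No column of another series was in the table. No edited base can be read from gene counts, so the genotype labels were not checked.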

Additional observations from a re-analysis of the deposited data

Results flagged for a closer look

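In groups of 4 to 10 libraries, Dixon's test for the gap of an extreme library was run for each member in the high class, in its codon 37 clones, in its codon 41 clones and in the 4 libraries at 7.5 and 10 µM. Groups with the same value in every library were not tested, which left 30 groups, and 10 of them were past the 95% critical value, none of these in the libraries with inhibitor. Chance alone sets a library apart in about 1 in 20 groups, but the groups share libraries and several values rest on few counts against 0, so the number of groups is not to be read against that share.

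Among all 9 high clones, Mixl1 was set apart in the S37F clone G1 at 5.11 CPM (5 counts), Fgf8 in the S37F clone H2 at 6.94 CPM (13 counts), Gsc in the same clone at 3.20 CPM (6 counts), Foxa2 in the S37Y clone A5 at 7.41 CPM (15 counts) and Mesp1 in the T41I clone A6 at 1.55 CPM (2 counts). Mixl1 at 5.11 CPM, Fgf8 at 6.94 CPM and Foxa2 at 7.41 CPM were also set apart among the 5 codon 37 clones. The nearest other high clone was at 2.40 CPM for Mixl1, 2.05 CPM for Fgf8, 1.49 CPM for Gsc, 2.40 CPM for Foxa2 and 0.689 CPM for Mesp1. Among the 4 codon 41 clones, T was set apart in the T41A clone E6 at 27.5 CPM (37 counts), with the next clone at 17.2 CPM, and Fgf8 in the T41I clone A6 at 1.55 CPM (2 counts), with the others at 0.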

How the results depend on the processing

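RLE scaling kept every member tested on its side of the threshold in the 9 comparisons where it was run, which leaves out the steps between neighbouring doses. Of the values of single members over all alternatives, 452 kept their direction and side of the threshold, 15 became called, 27 lost a call and 10 changed sign. Depth was varied by thinning to the smallest library. The genes called fell from 1256 to 3 for the dose slope, 1687 to 17 for the top doses against 0 µM, 3110 to 992 for high against low, 1145 to 185 for medium against low, 471 to 55 for high against medium, 3401 to 1020 for low against untreated, 3522 to 882 for high against untreated, 5043 to 597 for high against the top doses, and 7 to 1 for the codons. Members called under thinning were 0 for the dose slope, medium against low, high against medium, high against untreated and the codons, and 1 for the top doses against 0 µM and for high against the top doses.

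DESeq2 called 547 genes for the top doses against 0 µM, 30 for the codons, 73 from 0 to 2.5 µM, 2 from 2.5 to 5 µM and 0 from 5 to 7.5 µM. It called T and Eomes in high against medium and T from 0 to 2.5 µM. Without the filter, 739 genes were called in high against medium and 126 for the codons. Without it Mixl1 was called in high against low, and T and Eomes in medium against low and in high against medium. In low against untreated these were T and Mixl1. The share of all genes called without the filter is not given beside these calls, and for high against medium only the count of 739 is. The same limit holds for the other values without the filter given above, so they cannot be set against such a share. With clones of a mutation summed, 240 genes were called in high against medium. In that setting Mixl1 was called lower in high against low (−1.78, edgeR adjusted p = 0.0442), with 15 of its 19 low class counts in T41S. By rank of the mutations, 1871 genes were called. Among codon 41 clones alone the high minus low difference was −0.80 for T and −0.13 for Eomes. Without both libraries at 0 µM, 121 genes had a dose slope, and the slope was −0.057 for Eomes and −0.016 for Fgf8. With the set of mitochondrial share as a block, 545, 81, 8 and 17 genes were called in the 4 steps from 0 to 10 µM, and T differed by −0.048 in the last.

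Replicate numbers did not pair the unedited libraries. Same-numbered deviations correlated at −0.23 to 0.19 (median 0.015), over 0.1 in 3 of 10 pairs. With the replicate number as a block, 1140 genes and 2 members had a dose slope, and 1551 genes and 4 members were called for the top doses. From 0 to 2.5 µM T was called and Fgf8 was not, and from 7.5 to 10 µM 1 gene was called and Fgf8 differed by −0.0019.

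Leaving out each library in turn gave 527 to 1325 genes and 2 to 3 members for the dose slope, 681 to 1801 genes and 3 to 4 members for the top doses against 0 µM, and 1653 to 3264 genes and 0 members for high against low. It gave 276 to 1433 genes and 0 to 1 members for medium against low, 106 to 811 genes and 0 to 2 members for high against medium, and 1672 to 3479 genes and 0 to 1 members for low against untreated. It gave 1268 to 3748 genes and 0 to 2 members for high against untreated, 4226 to 5198 genes and 3 to 4 members for high against the top doses, and 0 to 6 genes and 0 to 1 members for the codons. The lowest counts came without the first library at 0 µM for the dose slope, the top doses and both comparisons with untreated cells, without T41S for high against low and medium against low, and without the second S45F clone for high against medium. Eomes ranged from −0.029 to 0.050 per µM for the dose slope and from −0.036 to 0.76 for the top doses, and T from −0.15 to 1.23 for high against low. Except where thinning or the leaving out of libraries by construction lowers the counts, the cause of these changes was not tested.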
